A study of Mus musculus with 9 samples.

Results

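The genes described here are 10 markers of the epicardium and of cardiac fibroblasts, given as a list of symbols with no threshold on any value: *Wt1*, *Tcf21*, *Tbx18*, *Upk3b*, *Upk1b* and *Aldh1a2* for the epicardium, and *Pdgfra*, *Postn*, *Dcn* and *Thy1* for fibroblasts. All 10 were found among the 24571 gene symbols used, and all 10 passed the filter of a mean of at least 1 TPM, as 13682 genes did. TPM is a transcript abundance corrected for gene length and scaled to a common library total. The libraries were made from whole hearts of C57BL/6N mouse embryos at E18.5, shortly before birth. Each genotype had 3 libraries: wild-type, heterozygous and homozygous, the last 2 carrying 1 or 2 copies of the R567W missense allele of *Ctcf*, which was made by CRISPR/Cas9. CTCF is the zinc-finger protein that anchors chromatin loops. No group carried another allele or received an agent, and gene-level TPM does not show a missense allele, so the genotypes are those of the labels. The comparisons ask whether these genes differ in level between the genotypes.

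The epicardium is the sheet of mesothelial cells that covers the heart. During development some of its cells lose their epithelial contacts, enter the heart wall and become fibroblasts and mural cells of the coronary vessels. *Wt1*, *Tcf21* and *Tbx18* encode transcription factors of the epicardium and its descendants, the uroplakins *Upk3b* and *Upk1b* mark mesothelium, and *Aldh1a2* encodes the enzyme that makes retinoic acid there. *Pdgfra* encodes the PDGF receptor of fibroblasts, *Postn* and *Dcn* encode the matrix proteins periostin and decorin, and *Thy1* encodes a GPI-anchored surface protein that is found on fibroblasts and, in mice, in large amounts on thymocytes.

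RefSeq promoter sequences on GRCm38.p6 were matched for 6 of the 10 genes. The 250 bases before the start are shown for 3 of them, since the results turn on their RNA levels: *Tcf21*, a transcription factor, *Upk3b*, a mesothelial gene, and *Postn*, the gene with the highest level. They are read 5′ to 3′ on the strand of the gene, *Tcf21* from chr10:22820144-22820393 (minus strand), *Upk3b* from chr5:136038246-136038495 and *Postn* from chr3:54360857-54361106 (both plus strand). Capitals mark AGATAA in *Tcf21*, GGAATG on the reverse strand in *Upk3b*, and AGGNGGC on the reverse strand and TATAAA in *Postn*.
Tcf21: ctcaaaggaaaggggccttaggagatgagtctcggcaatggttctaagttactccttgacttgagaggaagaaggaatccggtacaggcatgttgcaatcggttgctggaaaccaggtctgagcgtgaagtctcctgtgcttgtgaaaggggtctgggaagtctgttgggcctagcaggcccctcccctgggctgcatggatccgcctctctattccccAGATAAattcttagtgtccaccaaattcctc
Upk3b: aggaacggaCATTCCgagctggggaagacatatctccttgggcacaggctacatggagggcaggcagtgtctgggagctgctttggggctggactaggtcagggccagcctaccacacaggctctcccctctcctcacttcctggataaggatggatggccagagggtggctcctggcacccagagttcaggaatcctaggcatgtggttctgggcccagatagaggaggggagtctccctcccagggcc
Postn: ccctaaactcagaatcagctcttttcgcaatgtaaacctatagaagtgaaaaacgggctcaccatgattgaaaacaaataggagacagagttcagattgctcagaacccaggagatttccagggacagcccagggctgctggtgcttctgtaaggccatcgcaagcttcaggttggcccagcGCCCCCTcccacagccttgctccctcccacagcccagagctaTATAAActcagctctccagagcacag
The letters were searched on both strands of the 250-base windows. The core recognised by TEAD factors, GGAATG, stood in 12.6% of all 32851 windows. The sequence bound by erythroid and cardiac zinc-finger factors of the Gata family, AGATAA, stood in 9.99%, the TATA box TATAAA in 12.4%, and part of the core motif of CTCF, AGGNGGC, in 25.0%. Each of these 4 was found in 1 of the 7 windows of the listed genes (*Postn* has 2 windows). CANNTG, the E-box that TCF21 and other basic helix-loop-helix factors recognise and which reads alike on both strands, was found in 4 of the 7 windows and in 66.2% of all windows. GCGGGGGCG, a motif of zinc-finger factors such as WT1, was in 0 of the 7 and in 2.57% of all. None of the capitalised stretches overlaps an E-box. These matches describe letters, and no binding was measured.

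Some libraries held marker RNAs of other organs. In homozygous replicate 3, 14 thymocyte genes summed to 629 TPM against 0.83 to 4.03 in the other 8 libraries, and 5 thymic epithelial genes to 277 against 3.00 to 10.3. Each of these 14 and 5 genes was highest in that library. Airway and lung epithelial genes summed to 2628 TPM in wild-type replicate 1 and 1109 in heterozygous replicate 1, against 2.19 to 52.8 elsewhere. Liver genes reached 3272 TPM in heterozygous replicate 1, against 16.8 to 70.4 in the others. *Xist*, which female cells express, was above 1 TPM in 1 of 3 wild-type, 3 of 3 heterozygous and 1 of 3 homozygous libraries. The comparisons of the markers that involve homozygous hearts are given with and without homozygous replicate 3.

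All 10 marker genes were measured above 5 TPM in each of the 9 libraries. Per unit of transcript length, *Postn* had the highest median level over the 9 libraries at 400 TPM and *Dcn* the second at 129 TPM, and these 2 kept that order in 9 of 9 libraries. *Tcf21* followed at 31.02, *Upk3b* at 23.75, *Aldh1a2* at 15.79, *Wt1* at 11.98, *Pdgfra* at 10.96, *Tbx18* at 9.64, *Upk1b* at 8.38 and *Thy1* at 7.19 TPM. Below *Dcn* the neighbours in this order changed places in some libraries: *Tcf21* exceeded *Upk3b* in 7 of 9, *Wt1* exceeded *Pdgfra* in 8 of 9, and *Pdgfra* exceeded *Tbx18* in 6 of 9. The levels of the lower 8 genes therefore lay close to those of their neighbours, and their order differed between hearts.

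**Figure D1:**
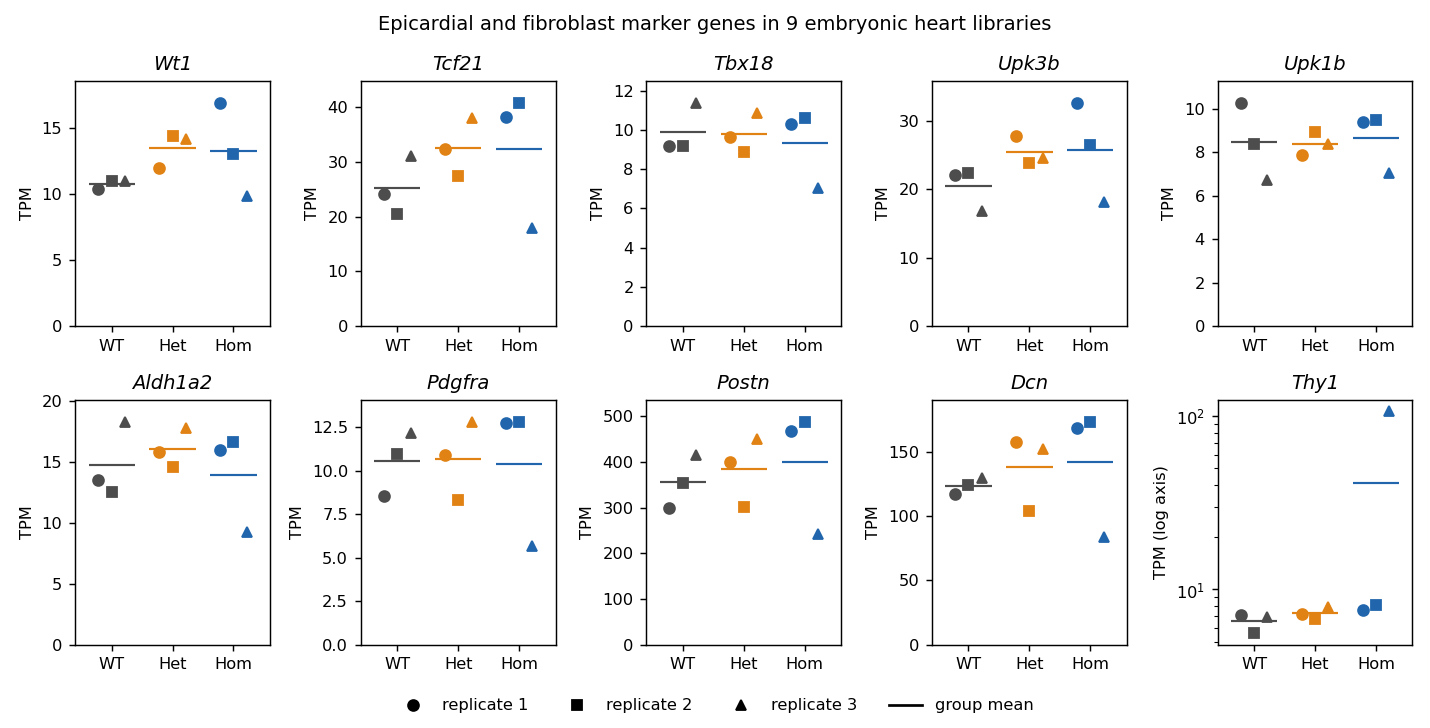
TPM of the 10 marker genes in each library (points) with the group mean (line) for wild-type (WT), heterozygous (Het) and homozygous (Hom) hearts. The axes start at 0 except for *Thy1*, which is on a log axis. Homozygous replicate 3 (blue triangle) is the lowest of the 9 libraries for 7 genes and reaches 108 TPM for *Thy1*.

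Of the transcription factors, *Wt1* (chr2:105126529-105173616, plus strand, GENCODE M21 on mm10) was at 10.4, 11.04 and 11 TPM in wild-type replicates 1 to 3, at 12.0, 14.4 and 14.2 in heterozygous and at 16.9, 13.1 and 9.87 in homozygous hearts. All 3 heterozygous values lay above all 3 wild-type values, while the homozygous values spanned both groups. The change of homozygous against wild type was a log2 of 0.25 ± 0.17 (SE), with a limma adjusted p of 0.374. *Tcf21*, which cardiac fibroblasts need to form (chr10:22817281-22820174, minus strand), was at 24.2, 20.4 and 31.02 TPM in wild-type, 32.4, 27.5 and 38.1 in heterozygous and 38.3, 40.7 and 18.0 in homozygous hearts. The highest and the lowest of the 9 values both came from homozygous hearts. Its log2 change was 0.28 ± 0.28, with an adjusted p of 0.515 (limma). *Tbx18*, a T-box factor (chr9:87702800-87731260, minus strand), was at 9.19, 9.17 and 11.4 TPM in wild-type, 9.64, 8.90 and 10.9 in heterozygous and 10.3, 10.6 and 7.03 in homozygous hearts. Its groups overlapped in each pair of genotypes, and its log2 change was -0.09 ± 0.17.

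The uroplakins are membrane proteins best known from the bladder lining. *Upk3b* (chr5:136038496-136046487, plus strand) was at 22.1, 22.4 and 16.8 TPM in wild-type, 27.8, 23.8 and 24.6 in heterozygous and 32.5, 26.4 and 18.1 in homozygous hearts. As for *Wt1*, the heterozygous values stood above the wild-type values without overlap, and the lowest homozygous value fell within the wild-type range. *Upk1b* (chr16:38773184-38800328, minus strand) was at 10.3, 8.38 and 6.72 TPM in wild-type, 7.89, 8.93 and 8.37 in heterozygous and 9.38, 9.49 and 7.03 in homozygous hearts, so that wild-type hearts held both its highest and its lowest value. For homozygous against wild type, the log2 change was 0.29 ± 0.20 for *Upk3b* and 0.03 ± 0.17 for *Upk1b*. *Aldh1a2* (chr9:71215789-71296243, plus strand) was at 13.5, 12.5 and 18.3 TPM in wild-type, 15.8, 14.6 and 17.8 in heterozygous and 15.98, 16.62 and 9.24 in homozygous hearts. Its highest value was wild-type and its lowest homozygous, with a log2 change of -0.10 ± 0.22 and overlapping groups.

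Among the fibroblast genes, *Postn* (chr3:54361109-54391037, plus strand) was at 298, 353 and 414 TPM in wild-type, 400, 300 and 451 in heterozygous and 468, 488 and 242 in homozygous hearts. *Dcn* (chr10:97479609-97518143, plus strand) was at 117, 124 and 129 TPM in wild-type, 158, 104 and 152 in heterozygous and 168, 173 and 83.7 in homozygous hearts. Both genes had their 2 highest values and their lowest value in homozygous hearts. *Pdgfra* (chr5:75152292-75198215, plus strand) was at 8.54, 10.96 and 12.16 TPM in wild-type, 10.9, 8.30 and 12.8 in heterozygous and 12.7, 12.8 and 5.68 in homozygous hearts. The log2 changes of homozygous against wild type were 0.11 ± 0.26 for *Postn*, 0.13 ± 0.26 for *Dcn* and -0.08 ± 0.28 for *Pdgfra*, each smaller than its SE. In these bulk samples, fewer cells of a type and less RNA per cell cannot be told apart.

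*Thy1* (chr9:44043384-44048579, plus strand) was at 7.11, 5.58 and 6.97 TPM in wild-type, 7.19, 6.74 and 7.93 in heterozygous and 7.59, 8.11 and 108 in homozygous hearts. The value of 108 TPM, in homozygous replicate 3, was 13.7 times the mean of the other 2 homozygous hearts, and the other 8 libraries lay between 5.58 and 8.11. All homozygous values lay above all wild-type values, with a log2 change of 1.44 ± 0.76 (95% interval -0.24 to 3.13) and an adjusted p of 0.251 (limma). Without replicate 3 the log2 change was 0.23 ± 0.16 (adjusted p = 0.290). This library is the one with the thymocyte and thymic epithelial RNAs. Over all tested genes the 5 with the pattern most like that of *Thy1* were *Fam169b*, *Zap70*, *H2-Eb1*, *Hmha1* and *Ptpn7*, with Pearson r of 0.996 to 0.997 over the 9 libraries and 0.530 to 0.768 over the 8 without homozygous replicate 3. *Zap70*, a kinase of T-cell receptor signalling, was at 14.6 TPM in homozygous replicate 3 and at 0.33 TPM or less in the others, and *H2-Eb1*, an MHC class II gene, was at 43.0 against 1.13 TPM or less. The part of thymus RNA in the *Thy1* level of that library was not tested.

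**Figure D2:**
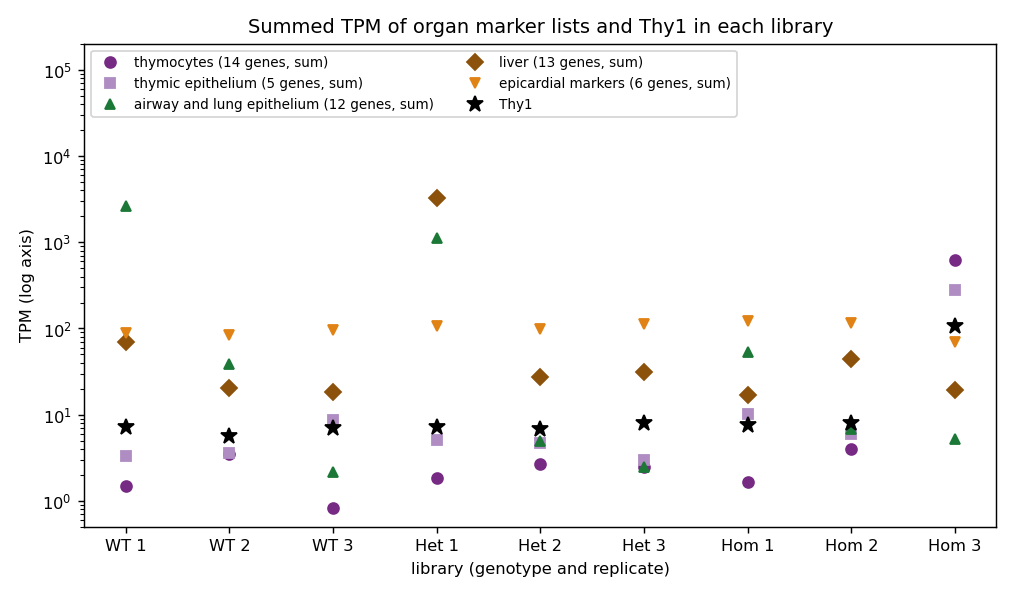
Summed TPM (log axis) of marker lists of thymocytes, thymic epithelium, airway and lung epithelium, and liver, with the summed epicardial markers and *Thy1*, in each of the 9 libraries (WT wild-type, Het heterozygous, Hom homozygous). *Thy1* reaches 108 TPM in the library whose thymocyte genes sum to 629 TPM, and the epicardial sum is lowest there at 69.3 TPM.

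None of the 10 genes passed an adjusted p of 0.05 in any comparison (limma, two-sided, Benjamini-Hochberg over 13682 genes), and 0 had an unadjusted p under 0.05, where 25.0% of all tested genes did for homozygous against wild type, 7.15% for homozygous against heterozygous and 6.87% for heterozygous against wild type. At the adjusted threshold, for homozygous against wild type, 46 of all tested genes were called (0.336%), for homozygous against heterozygous 6 (0.0439%) and for heterozygous against wild type 2 (0.0146%), so 0 called of 10 is near these background shares. The adjusted p of the 10 genes ran from 0.251 to 0.911 for homozygous against wild type. On this scale 81.7% of all tested genes had a change above 0 in homozygous against wild type, with a median log2 change of 0.23, and the 10 markers had a median of 0.12. *Wt1*, *Tcf21*, *Upk3b* and *Thy1* had changes above the all-gene median and the other 6 below it. After median-ratio scaling the median of all genes was 0.01 and that of the 10 markers -0.13, with 4 of 10 above 0. *Thy1* was the single marker with no overlap between these genotypes, where 22.3% of all tested genes were higher without overlap and 2.38% lower.

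Homozygous replicate 3 was the lowest of the 9 libraries for *Wt1*, *Tcf21*, *Tbx18*, *Aldh1a2*, *Pdgfra*, *Postn* and *Dcn*. For *Upk3b* and *Upk1b* it was the second lowest, after wild-type replicate 3. Its level relative to the mean of the other 2 homozygous hearts was 0.445 for *Pdgfra*, 0.456 for *Tcf21*, 0.491 for *Dcn* and 0.506 for *Postn*, and it was 0.567 for *Aldh1a2*, 0.614 for *Upk3b*, 0.659 for *Wt1*, 0.672 for *Tbx18* and 0.745 for *Upk1b*. The fibroblast genes other than *Thy1* thus stood lower there than 5 of the 6 epicardial genes, *Tcf21* being the exception. The same ratio was 0.518 for the summed levels of 24 other fibroblast genes, 0.658 for 8 mural cell genes, 0.727 for 10 endothelial genes and 0.804 for 12 cardiomyocyte genes. By the median of the ratios of single genes it was 0.489 for these fibroblast genes, 0.610 for endothelial, 0.734 for mural and 0.777 for cardiomyocyte genes, against 0.874 over all tested genes, so the order of mural and endothelial genes depended on the measure. The part of thymus RNA in these ratios was not tested.

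Without homozygous replicate 3, all 10 markers had a log2 change above 0 against wild type, with a median of 0.35 where the median of all tested genes was 0.28. Still 0 of 10 were called, with 279 of 13498 tested genes called (2.07%). Unadjusted p-values were under 0.05 for *Tcf21*, *Upk3b*, *Wt1*, *Dcn* and *Postn*, 5 of 10, as for 33.6% of all tested genes. *Tcf21* had a log2 change of 0.65 ± 0.19 (95% interval 0.23 to 1.06, adjusted p = 0.0771) and *Upk3b* of 0.52 ± 0.16 (0.16 to 0.87, adjusted p = 0.0832), by limma. *Wt1* was at 0.43 ± 0.15, *Dcn* at 0.47 ± 0.16 and *Postn* at 0.44 ± 0.18, with limma adjusted p of 0.101, 0.103 and 0.126. Both remaining homozygous values lay above all wild-type values for these 5 genes and for *Pdgfra* and *Thy1*, 7 of 10, where 47.3% of all tested genes did. *Tbx18* (0.08 ± 0.15), *Aldh1a2* (0.15 ± 0.17) and *Upk1b* (0.16 ± 0.17) had the 3 smallest changes and overlapped the wild-type range. With median-ratio scaling as well, the median of the 10 was 0.05, and 5 of 10 lay above 0. On the reported scale the median of the 10 was thus above 0 with this library (0.12) and without it. After median-ratio scaling its sign changed, from -0.13 with the library to 0.05. On both scales it lay below the all-gene median with this library and above it without. The homozygous group had 2 hearts in the fits without it.

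**Figure D3:**
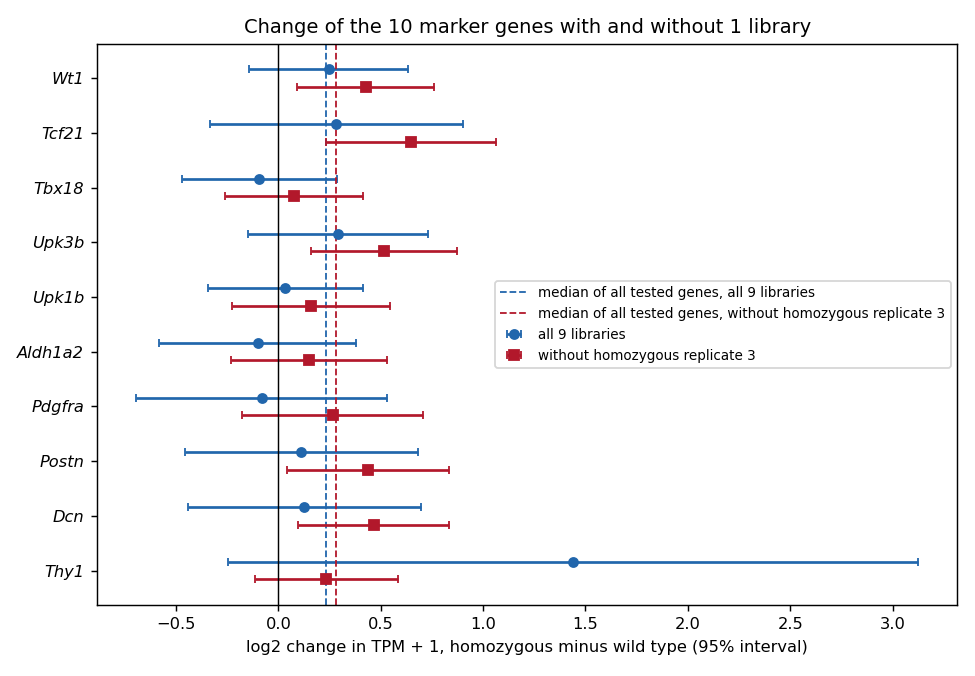
Change of each marker gene, homozygous minus wild type, as log2 of TPM + 1 with its 95% interval from limma, for all 9 libraries (blue circles) and without homozygous replicate 3 (red squares). Dashed lines give the median change of all tested genes, 0.23 and 0.28. Without that library the intervals of *Wt1*, *Tcf21*, *Upk3b*, *Postn* and *Dcn* lie above 0, and that of *Thy1* moves from a centre of 1.44 to 0.23.

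Heterozygous hearts were compared with wild-type hearts in the same fit, so the comparisons share libraries. The 10 markers had a median log2 change of 0.13, against 0.15 over all tested genes. Of the 10, 9 lay above 0, as did 81.45% of all tested genes. *Tcf21* had the highest change at 0.37 ± 0.28 and *Tbx18* the lowest at -0.01 ± 0.17, and the adjusted p (limma) ran from 0.672 to 0.994. These SEs also draw on the spread of the homozygous hearts. Without homozygous replicate 3 the changes were the same and the SEs smaller. *Tcf21* was then at 0.37 ± 0.17, *Wt1* at 0.29 ± 0.13 and *Upk3b* at 0.31 ± 0.14 (unadjusted limma p of 0.0527, 0.053 and 0.0563). Still 0 of 10 were called, with limma adjusted p of 0.493 to 0.986. With all 9 libraries *Wt1* (0.29 ± 0.17) and *Upk3b* (0.31 ± 0.20) were higher without overlap, 2 of 10, where 12.8% of all tested genes were. *Xist* was above 1 TPM in all 3 heterozygous but 1 of 3 wild-type libraries, and with it as a covariate these changes were 0.14 ± 0.21 for *Wt1* and 0.07 ± 0.22 for *Upk3b*. After median-ratio scaling, 3 of 10 markers lay above 0 in heterozygous against wild type, with a median of -0.03. Without the 3 libraries that held most RNA of other organs, 6 of 10 did, and *Tbx18*, *Pdgfra*, *Postn* and *Dcn* lay below 0. For homozygous against heterozygous, the median of the 10 was -0.03 against 0.08 over all tested genes, and 0 of 10 were higher without overlap (all genes 12.0%). Their changes ran from -0.23 ± 0.22 for *Aldh1a2* to 1.30 ± 0.76 for *Thy1*, and without homozygous replicate 3 these were 0.02 ± 0.17 and 0.10 ± 0.16. Without homozygous replicate 3 the median was 0.18 against 0.13 over all genes, 0 of 10 were called (0.0445% of all genes), and *Tcf21*, *Upk1b*, *Postn* and *Dcn* were higher without overlap, where 33.3% of all tested genes were.

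The fibroblast genes followed each other closely from heart to heart. Across the 9 libraries, which share the genotype groups and the uneven organ content, the Pearson r of log2(TPM + 1) between *Pdgfra*, *Postn* and *Dcn* was 0.917 to 0.966, and 0.836 to 0.964 over the 8 libraries without homozygous replicate 3. The ratio of *Postn* to *Dcn* stayed between 2.54 and 3.20 in the 9 hearts, while *Postn* itself ranged from 242 to 488 TPM. The 6 epicardial genes were less alike, with r of 0.143 to 0.963 over the 15 pairs, and -0.482 to 0.895 over 8 libraries. Their median r was 0.552 among themselves and 0.745 with *Pdgfra*, *Postn* and *Dcn* (0.329 and 0.563 over 8 libraries). Close r was therefore not confined to the fibroblast genes: *Tbx18* had r of 0.939 with *Pdgfra* over 9 libraries and 0.833 over 8. *Thy1* had r of -0.760 to -0.424 with the other 9 genes over 9 libraries and 0.227 to 0.909 over 8, so its sign rested on 1 library. Of 8 ratios between genes, picked after the values were seen, 3 did not overlap between wild-type hearts and those of either other genotype, and the other 5 overlapped between wild-type and homozygous hearts. For each of the 3 an exact test of homozygous against wild type gave p = 0.1, the smallest value that 3 against 3 libraries allow. No share over all pairs of genes is given beside this count, so it does not show an effect of genotype. Of the 3, *Pdgfra* to *Pdgfrb*, the PDGF receptor of mural cells, was 0.716 to 0.832 in wild-type, 0.543 to 0.644 in heterozygous and 0.431 to 0.689 in homozygous hearts. *Tcf21* to *Aldh1a2* was 1.63 to 1.79 in wild-type, 1.88 to 2.14 in heterozygous and 1.95 to 2.45 in homozygous hearts. The third was *Tbx18* to *Wt1*, at 0.831 to 1.03 in wild-type, 0.618 to 0.805 in heterozygous and 0.609 to 0.815 in homozygous hearts.

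**Figure D4:**
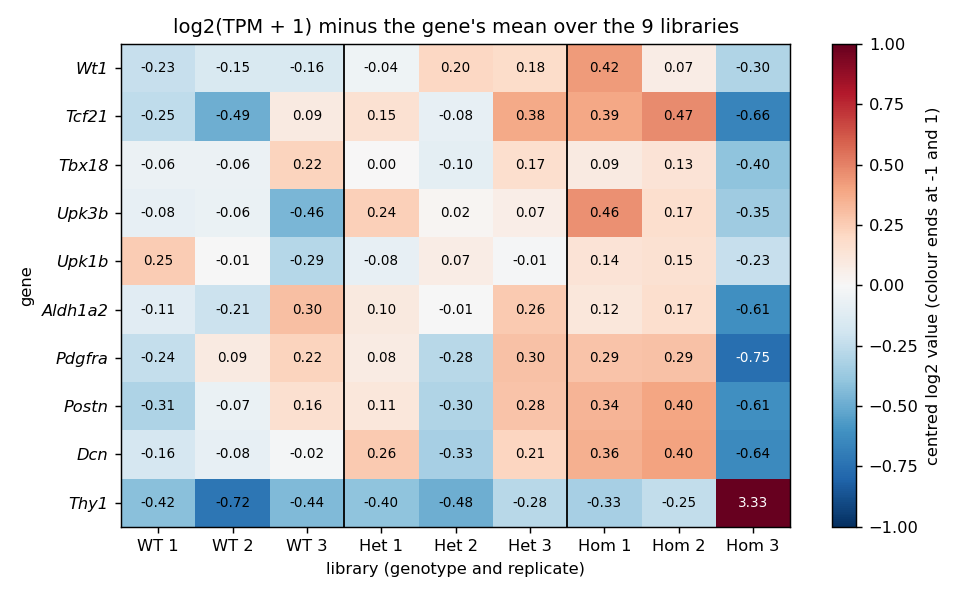
Level of each marker gene in each library as log2(TPM + 1) minus the mean of that gene over the 9 libraries (WT wild-type, Het heterozygous, Hom homozygous). The column of homozygous replicate 3 is below 0 for the 9 genes other than *Thy1*, from -0.75 for *Pdgfra* to -0.23 for *Upk1b*, and is 3.33 for *Thy1*, beyond the colour range.

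The genes most like *Postn* over the 9 libraries were *Itih5*, *Ltv1*, *Fstl1*, *Loxl1* and *Col5a1* (r of 0.986 to 0.993, and 0.975 to 0.990 over the 8 libraries without homozygous replicate 3), of which *Loxl1* encodes an enzyme that crosslinks elastin and *Col5a1* a fibrillar collagen. Those most like *Dcn* were *Col1a1*, *Thbs2*, *Col1a2*, *Antxr1* and *Fech* (0.983 to 0.988, and 0.970 to 0.978 over 8), with both chains of type I collagen among them. *Col1a1* ranged from 148 TPM in homozygous replicate 3 to 386 TPM in homozygous replicate 1. The mean of the 6 epicardial genes was most like *Pofut2*, *Hint2*, *Gfod1*, *Plvap* and *Nectin2* (0.975 to 0.980, and 0.946 to 0.962 over 8), and all 5 had their lowest value in homozygous replicate 3. *Plvap*, a protein of endothelial diaphragms, was at 36.2 TPM there and at 45.8 to 74.4 TPM in the others.

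Related genes were read from the same fit. Of 126 tested genes in lists of mesothelium, fibroblasts, retinoic acid, PDGF and TGF-beta signalling, epithelial-mesenchymal transition, uroplakins, matrix proteins, surface proteins and other heart cell types, without the 10 markers, 1 was called in homozygous against wild type, 0 in homozygous against heterozygous and 1 in heterozygous against wild type (limma). Of all tested genes, 0.336%, 0.0439% and 0.0146% were called in these comparisons. Unadjusted p-values under 0.05 were held by 16, 7 and 8 of the 126, where 25.0%, 7.15% and 6.87% of all tested genes held one. The called gene was *Spp1*, which encodes the matricellular protein osteopontin. It was at 8.90, 7.41 and 12.9 TPM in wild-type, 1.85, 0.74 and 1.43 in heterozygous and 0.43, 0.52 and 0.30 in homozygous hearts, with no overlap between the 3 genotypes. Its log2 change was -2.89 ± 0.26 in homozygous (adjusted p = 0.00097) and -2.19 ± 0.26 in heterozygous hearts against wild type (adjusted p = 0.0331), by limma. The heterozygous call was lost under at least 14 of 23 other settings. In the same list, *Ctgf* and *Cyr61*, direct targets of YAP signalling, were not called: *Ctgf* was at 119.5 to 668 TPM in wild-type and 39.98 to 84.2 TPM in homozygous hearts, a log2 change of -2.58 ± 0.55 (limma adjusted p = 0.0839), and *Cyr61* was at 33.8 to 279 and 17.6 to 29.6 TPM.

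In the list of 18 other epicardial and mesothelial genes, 12 of 18 had log2 changes above 0 in homozygous against wild type, where 81.7% of all tested genes did. Their median was 0.13 against 0.23 over all tested genes (0.27 against 0.28 without homozygous replicate 3). The highest and lowest changes were those of *Bnc1* (0.69 ± 0.22) and the keratin *Krt19* (-0.62 ± 0.39), and 0 of 18 were called, with 1 unadjusted p under 0.05. *Bnc1*, a mesothelial zinc-finger gene, was at 0.82 to 1.13 TPM in wild-type and 1.87 to 2.64 TPM in homozygous hearts, while *Krt19* was highest in wild-type replicate 1, the library with the most airway RNA. The keratins *Krt8* and *Krt18* were at 52.6 and 58.7 TPM in homozygous replicate 3, the library with thymic epithelial RNA. In the other libraries they were at 3.26 to 18.7 and 4.23 to 19.2 TPM. The part of thymus RNA in these levels was not tested. Of 24 other fibroblast genes, 19 lay above 0, with a median of 0.15 (0.43 without homozygous replicate 3, and -0.10 after median-ratio scaling of all 9 libraries, with 7 of 24 above 0), and 18 of 24 were lowest in homozygous replicate 3. Their highest change was that of *Fap*, a serine protease of activated fibroblasts, at 0.44 ± 0.23, and the lowest that of *Pdgfrl* at -0.56 ± 0.33, with 0 called and 0 unadjusted p under 0.05. From the list of epithelial-mesenchymal transition, *Cdh11*, the cadherin of mesenchymal cells, was at 16.7 to 17.7 TPM in wild-type and at 26.9, 35.5 and 17.8 TPM in homozygous hearts. Without homozygous replicate 3 it was called, at 0.79 ± 0.17 (adjusted p = 0.0487), as were *Fmod*, a small leucine-rich proteoglycan related to decorin, at 0.74 ± 0.16 (adjusted p = 0.0488), *Adamts19* of valve cells (0.77 ± 0.14) and *Npr3* of endocardium (0.57 ± 0.11), by limma, in a fit that called 2.07% of all tested genes. None of these 4 was called with all 9 libraries, nor when the 3 libraries with most RNA of other organs were left out together. They come from the lists of related genes, which held 126 tested genes with all 9 libraries. *Spp1* was also called without homozygous replicate 3, for a lower level.

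Of the genes that make or bind retinoic acid, 11 of 17 were tested and 0 called, with a median log2 change of 0.29, the same without homozygous replicate 3, and 2 unadjusted p-values under 0.05, both for higher levels. *Aldh1a3*, another retinaldehyde dehydrogenase, was at 0.74 to 0.98 TPM in wild-type and 1.36 to 2.23 TPM in homozygous hearts, a log2 change of 0.61 ± 0.24. *Aldh1a1* was at 14.4 TPM in wild-type replicate 1 and 9.06 in heterozygous replicate 1, the libraries with airway RNA, and at 0.82 to 4.52 TPM in the others. Of the PDGF ligands and receptors, 0 of 6 were called and 1 had an unadjusted p under 0.05, and *Pdgfa*, a ligand of the receptor encoded by *Pdgfra*, was at 28.2 to 35.5 TPM in wild-type and 24.04 to 27.99 TPM in homozygous hearts (log2 change -0.28 ± 0.12, adjusted p = 0.192, limma). After median-ratio scaling *Pdgfa* was called, with a log2 change of -0.52 ± 0.10 (adjusted p = 0.0365, limma). All 11 genes of epithelial-mesenchymal transition lay above 0 with a median of 0.30, where 81.7% of all tested genes lay above 0, and 0 were called, with 1 unadjusted p under 0.05. After median-ratio scaling 7 of 11 lay above 0 with a median of 0.15. *Itga4* (6.82 TPM) and *Cdh1* (4.19 TPM) were highest in homozygous replicate 3, the library with thymus RNA. *Cdh1* was nearly as high in the libraries with airway RNA, with 3.51 TPM (wild-type) and 3.28 TPM (heterozygous), against 0.02 to 0.49 TPM in the rest. Without homozygous replicate 3, but with both airway libraries kept, the log2 change of *Cdh1* was -0.31 ± 0.69. The part of thymus or airway RNA in these levels was not tested.

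The nearest tested gene on either side of each marker was also read. Distances reached 3448.1 kb, for *Gap43* from *Upk1b*, and 6 of the 20 genes lay within 50 kb of their marker. Of these 20 neighbours, 0 were called in homozygous against wild type (limma adjusted p of 0.110 to 0.998), and 5 of 20 had an unadjusted p under 0.05, the same share as the 25.0% of all tested genes. *Wt1os* is an antisense gene whose annotation ends 19 bases before *Wt1* begins. It was at 0.27 to 0.99 TPM in 8 libraries and at 29.0 TPM in homozygous replicate 3, the library with thymus RNA. In that library 7 of the 10 markers were lowest, *Wt1* among them at 9.87 TPM. In wild-type replicate 1 *Wt1os* was at 0.27 TPM and *Wt1* at 10.4 TPM. A relation between these 2 genes was not tested. *Lum*, which encodes the proteoglycan lumican 47.0 kb from *Dcn*, was at 38.2 to 43.0 TPM in wild-type hearts and at 42.1, 45.0 and 19.5 TPM in homozygous hearts, like *Dcn* lowest in replicate 3. *Cep162*, 447.3 kb from *Tbx18*, had the lowest adjusted p of the 20, with 1.15 to 2.41 TPM in wild-type and 3.22 to 4.09 TPM in homozygous hearts. Of the 31-base words in the transcripts of each marker, at most 1.26% also occur in another gene on either strand, except 5.57% for *Pdgfra* and 19.5% for *Tbx18*. The latter lie mostly in *D030062O11Rik*, annotated on the opposite strand at 0.11 to 0.65 TPM. Whether the counting used strand is not given in the sources used here.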

How the data were processed

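Each heart was collected into its own tube, and mRNA was captured with beads. The authors trimmed reads with Trim Galore, aligned them to mm10 with STAR and quantified genes with RSEM. The deposited TPM values, which are scaled to a common total after correction for gene length, sum to 999100 to 999245 per library. TPM keeps no depth, so counting error is unknown and the spread between 3 libraries is the only measure of precision. The DESeq2 test of the authors needs counts and was not run. Of 24597 symbols, 26 that had turned into dates were left out.

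Values were analysed as log2(TPM + 1), which understates the changes of low genes. The limma package (v3.58.1, eBayes with trend, R v4.3.3) was applied to the 9 libraries together, with genotype as the factor, after genes averaging under 1 TPM had been removed. P-values were two-sided and Benjamini-Hochberg adjusted per comparison over all tested genes, and genes under 0.05 were called. The script was tested on simulated data. The markers, lists and tests were chosen with earlier results of these data known. Text names all markers, called list genes or those with extreme changes in a list, neighbours by GENCODE M21, and the 5 genes most correlated with a marker. Others, such as *Cdh11*, *Fmod*, *Adamts19*, *Npr3*, *Ctgf*, *Cyr61*, *Aldh1a1*, *Krt8*, *Krt18* and ratios, were chosen after their values were seen. Results were recomputed under 22 other settings and 1 added after the data were seen (median-ratio scaling without homozygous replicate 3).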

Additional observations from a re-analysis of the deposited data

How the results depend on the processing

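The number of markers called was 0 in each comparison under 22 of 23 alternatives for homozygous against wild type and under 23 of 23 for the other 2 comparisons. The exception was limma's arrayWeights, under which 3 markers were called in homozygous against wild type (*Wt1*, *Tcf21* and *Upk3b*) together with 5068 of all genes. Of 690 recomputed marker changes 102 had the opposite sign, none of them called, and 27 of these moved by more than the SE of the reported change. For homozygous against wild type, these were *Upk1b* at -0.20 after median-ratio scaling and -0.27 after quantile normalization, *Wt1* at -0.0357 after quantile normalization, *Tbx18*, *Aldh1a2* and *Pdgfra* at 0.10, 0.21 and 0.20 under arrayWeights, and *Thy1* at -0.0428 after median-ratio scaling without homozygous replicate 3. Leaving out 1 library at a time gave -0.19 to 0.0776 for *Tbx18*, -0.24 to 0.15 for *Aldh1a2* and -0.26 to 0.27 for *Pdgfra*, the highest without homozygous replicate 3. For homozygous against heterozygous, *Wt1* was at 0.17 under arrayWeights and *Upk3b* at 0.23 with *Xist* as a covariate. Without the 3 libraries that held most RNA of other organs, *Tcf21* was at 0.28, *Upk3b* at 0.27, *Aldh1a2* at 0.016, *Pdgfra* at 0.28 and *Dcn* at 0.44, and *Thy1* was at -0.0346 after median-ratio scaling without homozygous replicate 3. Leaving out 1 library gave -0.23 to 0.13 for *Wt1*, -0.29 to 0.28 for *Tcf21*, -0.18 to 0.0884 for *Tbx18*, -0.20 to 0.21 for *Upk3b*, -0.37 to 0.025 for *Aldh1a2*, -0.27 to 0.26 for *Pdgfra* and -0.20 to 0.33 for *Dcn*. For heterozygous against wild type, *Upk1b* was at -0.18 after quantile normalization and -0.19 with *Xist* as a covariate. The causes of these shifts were not tested.

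Counts over all genes moved more: 11 to 5068 for homozygous against wild type, with 2161 without wild-type replicate 3 and 279 without homozygous replicate 3, 0 to 43 for homozygous against heterozygous and 0 to 6 for heterozygous against wild type. Median-ratio scaling gave 238 calls, 39 higher and 199 lower, where the reported fit gave 26 higher and 20 lower. *Spp1* lost its call in heterozygous against wild type under at least 14 of 23 alternatives, those in which no gene of the matricellular list was called. In homozygous against wild type this held under 1, where a mean of 5 TPM removed *Spp1* from the test. With the replicate block 0 markers were called in each comparison and 17, 1 and 1 of all genes. Same-numbered libraries had correlations of -0.03 to 0.36 between their deviations, and libraries of other numbers -0.31 to 0.12. Of 9 libraries, 4 were closest to their own number in both other groups. These values do not settle whether the shared numbers are pairs. The labels name no pairs, so the reported fit had no block.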
